A study of Mus musculus with 9 samples.

Results

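Astrocyte reactivity genes were followed by symbol through single-nucleus RNA sequencing (snRNA-seq) of the mouse brain. All 8 members, Gfap, Vim, Serpina3n, Cd44, Id3, Sox9, Stat3 and S100b, were found among the 31053 genes listed. The 9 libraries came from 9 wild-type male C57BL/6 mice, with 3 mice and 1 library per mouse in each of 3 groups. Young AAV-EGFP mice (5 months old) and aged AAV-EGFP mice (19 months old) carried an adeno-associated virus (AAV) that expresses the fluorescent protein EGFP. Aged AAV-B3GNT3 mice (19 months old) carried the same vector with EGFP and B3GNT3, a glycosyltransferase that extends mucin-type O-glycans. Every mouse was injected retro-orbitally 8 weeks before collection, and in every vector the PHP.V1 capsid and a shortened claudin-5 promoter direct expression to brain endothelial cells (BECs). No astrocyte therefore was the intended target of the transgene, and no uninjected group was analysed here. Cortex and hippocampus of a mouse were pooled, so a regional difference within astrocytes cannot be resolved. A cluster of 3696 striatal-like inhibitory neuron nuclei, with Drd2 and Adora2a among its top genes, was also present. The regional make-up of the tissue of each mouse was not tested.

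Astrocytes support neurons by clearing glutamate and potassium, and they ensheath blood vessels with endfeet. After injury, in inflammation and in ageing they can enter reactive states, which are known for more intermediate filament and for a programme driven in part by JAK-STAT signalling. GFAP and vimentin, encoded by Gfap and Vim, are the intermediate filament proteins of that response. S100B is a calcium-binding protein of astrocytes and of some oligodendrocyte-lineage cells, and SERPINA3N is a secreted serine protease inhibitor. CD44 is the receptor for hyaluronan. SOX9 is a transcription factor that specifies astrocytes, STAT3 carries signals of the interleukin-6 family to the nucleus, and ID3, a target of bone morphogenetic protein (BMP) signals, inhibits basic helix-loop-helix transcription factors.

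The members are protein-coding genes spread over 5 chromosomes of mouse GRCm38. Gfap (ENSMUSG00000020932) lies on the minus strand at chr11:102887336-102900912, and Stat3 (ENSMUSG00000004040) and Sox9 (ENSMUSG00000000567) lie on the same chromosome at chr11:100885098-100939540 and chr11:112782224-112787760. Vim (ENSMUSG00000026728) lies at chr2:13573927-13582826 and Cd44 (ENSMUSG00000005087) at chr2:102811141-102901665. S100b (ENSMUSG00000033208) lies at chr10:76253853-76261159, Serpina3n (ENSMUSG00000021091) at chr12:104406729-104414329 and Id3 (ENSMUSG00000007872) at chr4:136143497-136145755. Values are sums over the whole gene, and whether intronic reads were counted is not given in the sources used here. Gfap, Stat3 and S100b overlap Gm26668, Stat5a and Dip2a on the other strand. Strand use in counting is not given in the sources used here, and reads from these partners were not examined. Serpina3n is 1 of 10 Serpina3 genes listed on chromosome 12, so its reads may be shared with near copies and its values are uncertain to that extent.

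RefSeq promoters (build GRCm38.p6) were matched for 7 of the 8 members, not for Sox9. The 4 printed here belong to the members whose levels carry the results, and they run from 250 bases before the transcript start, 5′ to 3′ on the gene's own strand. Capitals mark matches, on either strand, to the STAT core TTCNNNGAA in Gfap, to CCAAT in S100b and Vim, to the TATA box TATAAA in Vim and to the GC box GGGCGG in Id3. The Gfap sequence spans chr11:102897194-102897450 and ends 7 bases after the start, so that the whole match is shown.
Gfap promoter: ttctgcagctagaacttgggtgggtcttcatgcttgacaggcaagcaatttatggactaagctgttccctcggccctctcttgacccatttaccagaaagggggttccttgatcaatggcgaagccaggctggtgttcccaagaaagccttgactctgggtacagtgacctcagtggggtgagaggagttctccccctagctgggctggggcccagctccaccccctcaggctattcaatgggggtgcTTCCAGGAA
S100b promoter: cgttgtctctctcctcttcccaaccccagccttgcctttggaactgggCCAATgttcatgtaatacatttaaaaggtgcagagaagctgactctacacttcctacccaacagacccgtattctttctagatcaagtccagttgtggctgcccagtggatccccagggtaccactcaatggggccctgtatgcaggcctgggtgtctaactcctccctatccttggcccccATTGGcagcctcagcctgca
Id3 promoter: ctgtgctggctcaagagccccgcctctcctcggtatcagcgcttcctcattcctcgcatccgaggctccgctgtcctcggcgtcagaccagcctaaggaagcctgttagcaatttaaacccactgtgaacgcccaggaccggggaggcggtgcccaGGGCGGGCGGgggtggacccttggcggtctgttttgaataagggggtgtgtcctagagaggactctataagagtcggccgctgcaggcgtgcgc
Vim promoter: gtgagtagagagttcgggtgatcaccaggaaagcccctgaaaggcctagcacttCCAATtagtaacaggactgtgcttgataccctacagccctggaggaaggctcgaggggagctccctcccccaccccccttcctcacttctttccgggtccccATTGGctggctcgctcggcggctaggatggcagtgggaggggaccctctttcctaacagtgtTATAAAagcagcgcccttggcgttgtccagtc
The other 3 spans are chr10:76253586-76253835 for S100b, chr4:136143572-136143821 for Id3 and chr2:13574061-13574310 for Vim. Among the 32851 promoter windows of the table (250 bases before to 50 after the start), 8.3% held TTCNNNGAA, 13.6% TATAAA, 37.4% CCAAT and 35.7% GGGCGG. Of the 7 members with a window, only Gfap held TTCNNNGAA (TTCCAGGAA, positions -2 to 7) and only Vim held TATAAA (positions -32 to -27). CCAAT was present in 3 of the 7 (Vim, S100b and Stat3) and GGGCGG in 3 of the 7 (Id3, Stat3 and Cd44), and the capitals of Id3 hold 2 overlapping copies. These letters are a description of the windows, and no occupancy was measured.

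The 9 libraries held 6331 to 10264 barcodes and 47332047 to 79964605 unique molecular identifiers (UMIs) each, and 70277 of 77823 nuclei were kept. Between 7 and 37 barcodes were shared by any pair of libraries. Clusters were named from marker genes with the members left out of the clustering, and the astrocyte class is 1 cluster of 8403 nuclei (593 to 1421 per mouse) in which all 10 astrocyte markers passed. The 10 markers also passed in clusters of 35 and 16 nuclei, which carried microglia or oligodendrocyte markers as well and were left out. Astrocytes made up 13.4% to 16.7% of the nuclei kept in young, 8.41% to 9.05% in aged AAV-EGFP and 7.54% to 15.4% in AAV-B3GNT3 mice. The part of this share in the differences below was not tested. The mouse gene B3gnt3 was at 0, 3 and 3 UMIs in the BECs of the AAV-B3GNT3 mice and at 0 in each aged AAV-EGFP mouse. Young mice held 6, 3 and 1. Whether reads of the transgene were counted as B3gnt3 is not given, so these UMIs do not measure its expression. By staining of isolated microvessels, the paper reports more B3GNT3 in aged mice given AAV-B3GNT3 than in those given AAV-EGFP. Neuronal RNA outside neurons moved with the groups. All 7 neuronal genes tested fell in astrocytes with ageing, among them Kcnip4 by 1.34, Meg3 by 1.10 and Snhg11 by 1.02 on the log2 scale, which rose by 0.96, 0.81 and 0.71 under AAV-B3GNT3. The 3 rises did not pass without AAV-B3GNT3 replicate 2 or aged AAV-EGFP replicate 2, and those of Meg3 and Snhg11 also not without aged AAV-EGFP replicate 3 (adjusted p = 0.0706 and 0.0864) or with only the compared groups fitted (0.0528 and 0.0547). The Snhg11 differences did not pass with free RNA subtracted either, at -1.01 in ageing (0.0741) and 0.64 under AAV-B3GNT3 (0.252). Snhg11 is 1 of the 7 genes from which free RNA was estimated, so this is not an independent check. In astrocytes the estimated share of free RNA was 18.4% to 18.8% in young, 6.61% to 9.56% in aged AAV-EGFP and 13.01% to 19.04% in AAV-B3GNT3 mice. Each call below was therefore recomputed with that RNA subtracted where the gene still passed the filter on low counts, and its value is given wherever the call was lost.

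The members differed in where they were most abundant. Levels are given as CPM, the UMIs of a gene relative to all UMIs of the genes that passed the filter in a cell class, scaled to a fixed total after TMM normalization, over all 9 mice. Gfap was highest in astrocytes, at 88.1 ± 34.6 CPM (SD, n = 9 mice), with a range of 50.3 to 124.5 CPM. In oligodendrocytes it lay between 1.20 and 6.03 CPM, and in excitatory neurons between 0.305 and 1.46 CPM. BECs came next to astrocytes in mean Gfap (14.7 CPM), but on 0 to 7 UMIs per mouse, and 1 mouse at 57.1 CPM overlapped the astrocyte range. Sox9 was also highest in astrocytes, at 78.9 ± 12.3 CPM, and its astrocyte range of 63.5 to 92.9 CPM did not reach that of fibroblasts, the next class, at 10.2 to 28.3 CPM. The fibroblast class also carried astrocyte and choroid plexus markers, as given below, so its place for any member is uncertain to that extent.

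By the mean over all 9 mice, astrocytes were not the leading class for the other 6 members. Vim was highest in BECs (179 ± 106 CPM, n = 9), whose range of 86.8 to 416 CPM lay above the fibroblast range of 16.4 to 81.0 CPM, while astrocytes held 8.94 ± 3.82 CPM. Id3 was likewise highest in BECs (222.9 ± 136 CPM), followed by fibroblasts (56.7 CPM) and astrocytes (53.9 ± 9.29 CPM), and each of these neighbours overlapped. Stat3 was spread widely, with overlapping means of 239 CPM in fibroblasts, 234 in mural cells, 226 in BECs, 207 in microglia and 140.5 ± 25.8 CPM in astrocytes. S100b was highest in oligodendrocyte precursor cells (41.8 ± 10.1 CPM) and astrocytes (37.4 ± 11.6 CPM), which overlapped, ahead of oligodendrocytes (26.4 CPM). In aged AAV-EGFP mice alone S100b was at 49.6 CPM in astrocytes and 47.2 CPM in the precursor cells, again with overlap. Cd44 was low everywhere, with 17.8 ± 14.6 CPM in fibroblasts and 10.4 ± 5.94 CPM in astrocytes. The fibroblast mean for Cd44 was 33.0 CPM in young, 8.67 in aged AAV-EGFP and 11.7 in AAV-B3GNT3 mice, and in the last group astrocytes had the highest mean (16.5 CPM), with microglia at 14.5 CPM and overlap between all 3 classes. Serpina3n rested on few UMIs, with 2.60 ± 1.31 CPM in oligodendrocytes and 1.67 ± 0.874 CPM in astrocytes.

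**Figure D1:**
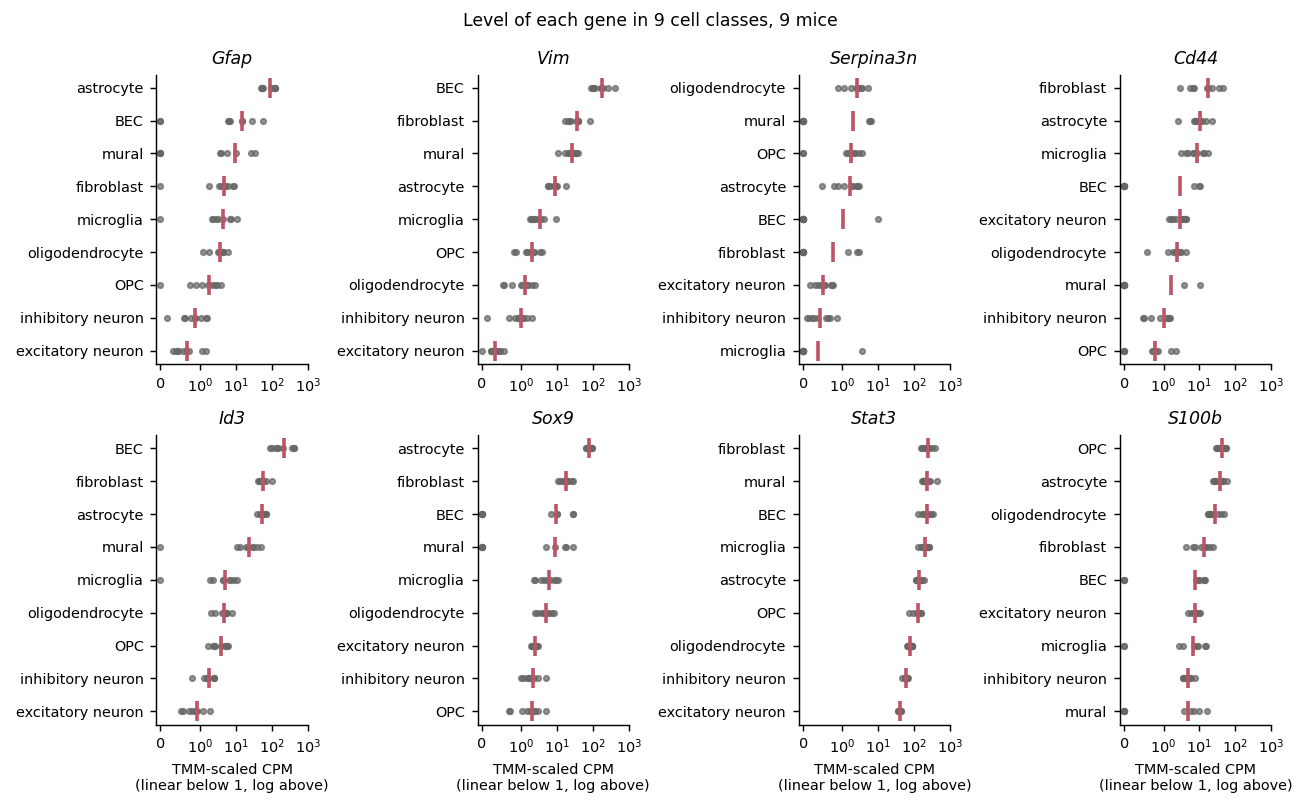
Level of each member by cell class, in TMM-scaled CPM on an axis that is linear near 0 and logarithmic above. Grey points are the 9 mice of all groups and the red tick is their mean. Gfap and Sox9 are highest in astrocytes (means 88.1 and 78.9), Vim and Id3 in BECs (179 and 222.9).

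Ageing, the comparison of aged with young AAV-EGFP mice, raised Gfap and S100b in astrocytes. In young mice Gfap stood at 57.4, 51.5 and 50.3 CPM, in aged AAV-EGFP mice at 52.1, 122.6 and 114 CPM. The 3 young mice lay close together, whereas aged replicate 1 fell within the young range and the other two lay above all young mice. The log2 fold change was 0.86 (SE 0.24, 95% confidence interval 0.36 to 1.37, adjusted p = 0.0296, edgeR quasi-likelihood test, Benjamini-Hochberg over 12671 genes). Without aged replicate 1 the value was 1.15 (adjusted p = 0.000414). The call was lost without any other mouse of either group (adjusted p from 0.0545 to 0.143), and also with free RNA subtracted, at 0.71 (adjusted p = 0.123).

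S100b gave the steadier difference. It stood at 25.7, 23.9 and 27.3 CPM in young and at 45.3, 58.4 and 45.1 CPM in aged AAV-EGFP astrocytes, and the groups did not overlap. The log2 fold change was 0.96 (SE 0.18, interval 0.58 to 1.34, adjusted p = 0.00405). S100b passed in each of the 10 other settings, free RNA subtracted included (adjusted p = 0.0423), and with each of the 9 mice left out. Among markers of other cell types in astrocytes, those of mural cells summed to 189 to 212 CPM in young and 249 to 297 CPM in aged AAV-EGFP mice, those of oligodendrocytes to 468 to 589 CPM and 253 to 385 CPM, and those of oligodendrocyte precursor cells to 112 to 183 CPM and 72.3 to 101 CPM. Those of inhibitory neurons summed to 218 to 299.5 CPM in young and 112 to 133 CPM in aged AAV-EGFP mice. The part of these markers in the Gfap and S100b differences was not tested.

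The other members tested did not pass in ageing. Vim differed by 0.56 (interval -0.20 to 1.32, adjusted p = 0.324) on 10 to 37 UMIs per mouse, with aged replicate 2 alone at 18.1 CPM against 5.66 and 10.0 CPM. Leaving out 1 mouse moved the Vim difference between 0.06, without aged replicate 2, and 0.84. Sox9 was even across the aged mice at 92.9, 91.7 and 87.3 CPM and differed by 0.21 (interval -0.10 to 0.52) from 90.4, 79.1 and 64.2 CPM in young mice. The differences for the signalling members were 0.16 for Stat3 (interval -0.19 to 0.50) and 0.06 for Id3 (interval -0.33 to 0.46). Cd44 differed by -0.01, with an interval as wide as -0.92 to 0.90. Serpina3n, at 1 to 12 UMIs per mouse in astrocytes, did not pass the filter on low counts, so no fold change was tested for it there. In all, 2 of the 7 members tested rose and 0 fell, where 11.7% of all genes tested in astrocytes passed in either direction, and the median log2 fold change was 0.21 over these members against -0.00258 over all genes. Only S100b did not overlap between the groups, a separation shown by 29.8% of all genes.

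**Figure D2:**
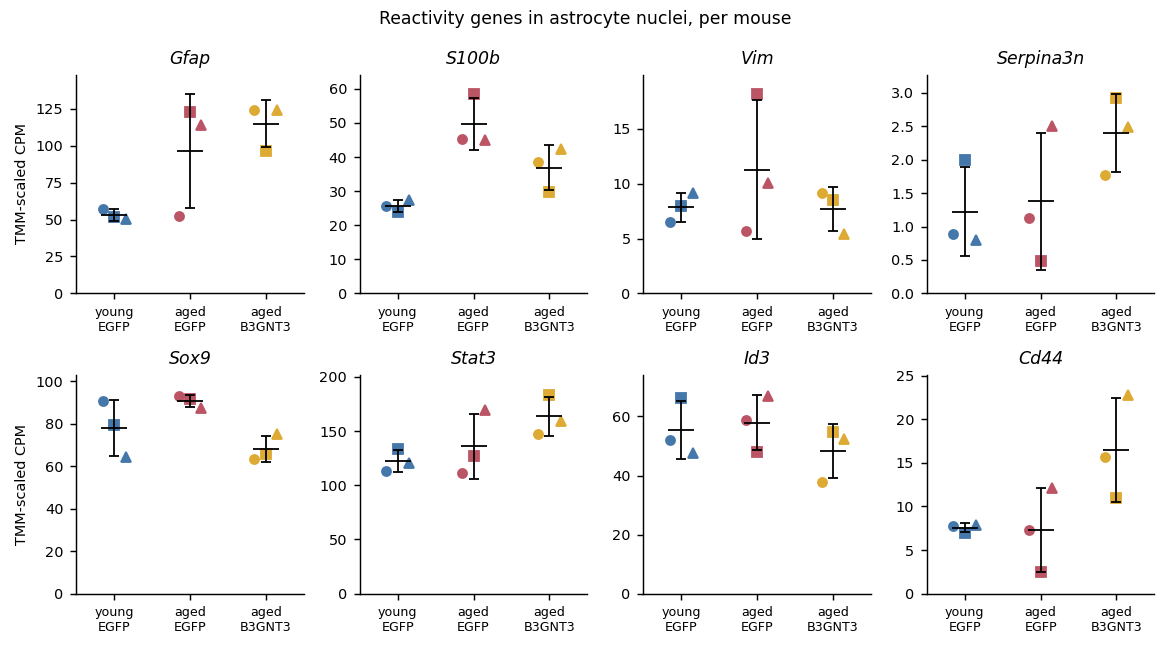
Level of the 8 members in astrocyte nuclei of each mouse, in TMM-scaled CPM from 0. Circles, squares and triangles are replicates 1, 2 and 3, and bars show the mean ± SD (n = 3 mice). S100b separates young from aged AAV-EGFP mice, while aged AAV-EGFP replicate 1 sits at 52.1 for Gfap beside the young mice.

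AAV-B3GNT3, compared with AAV-EGFP in aged mice, changed no member past the threshold in astrocytes. These 2 comparisons share the aged AAV-EGFP mice, so their values are given side by side and no agreement between them is drawn. Gfap stood at 124, 96.5 and 124.5 CPM in AAV-B3GNT3 mice, which overlapped the aged AAV-EGFP mice, and differed by 0.24 (interval -0.25 to 0.73, adjusted p = 0.587). The interval runs from a small decrease to an increase, and the sign turned without aged AAV-EGFP replicate 1 (-0.04). Sox9 stood at 63.5, 65.8 and 75.1 CPM, below all 3 aged AAV-EGFP mice, with a log2 difference of -0.41 (SE 0.15, interval -0.73 to -0.10, adjusted p = 0.119). S100b, at 38.7, 29.7 and 42.3 CPM, was also below them, with -0.44 (SE 0.18, interval -0.81 to -0.06, adjusted p = 0.162).

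Among the members tested in astrocytes, Cd44 had the widest difference under AAV-B3GNT3. It stood at 15.6, 11.0 and 22.8 CPM against 7.36, 2.45 and 12.1 CPM in aged AAV-EGFP mice, and the groups overlapped. The log2 difference was 1.10 (SE 0.40, interval 0.26 to 1.94, adjusted p = 0.121), and it passed with no filter on low counts (adjusted p = 0.00662) and without aged AAV-EGFP replicate 3 (adjusted p = 0.0467). Leaving out 1 mouse moved it between 0.69, without aged AAV-EGFP replicate 2 (adjusted p = 0.346), and 1.73, without replicate 3. Stat3 differed by 0.26, Id3 by -0.27 and Vim by -0.53, none past the threshold. The Vim difference ran from -0.82 to -0.04 with 1 mouse left out, the latter without aged AAV-EGFP replicate 2. Of the 7 members tested 0 passed, with 3 at an unadjusted p under 0.05 and 0 by DESeq2, where 4.87% of all genes tested passed. The members' median was -0.27 against 0.01 for all genes. Of the 7 members, 2 (S100b and Sox9) did not overlap, as did 24.2% of all genes.

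Against young mice, the AAV-B3GNT3 mice were higher in Gfap. All 3 lay above all 3 young mice, and the log2 fold change was 1.11 (SE 0.23, interval 0.61 to 1.60, adjusted p = 0.0222), also with free RNA subtracted (adjusted p = 0.0438). The estimated free RNA of these 2 groups overlapped only through AAV-B3GNT3 replicate 2, at 19.04%. AAV-B3GNT3 replicates 1 and 3, at 13.01% and 14.47%, lay below every young mouse (18.4% to 18.8%). Among markers of other cell types in astrocytes, those of mural cells (239 to 294 CPM) lay above and those of oligodendrocytes (371 to 410.5 CPM) and excitatory neurons (153 to 188 against 225 to 253 CPM) below the young mice, and their part in the Gfap difference was not tested. The call was lost without AAV-B3GNT3 replicate 1 or 3, or without young replicate 2 or 3 (adjusted p from 0.0572 to 0.113). S100b, Stat3 and Cd44 were also above every young mouse, by 0.52, 0.42 and 1.09, and did not pass (adjusted p = 0.132, 0.174 and 0.124), though Cd44 did with no filter on low counts (0.00372) or with only these groups fitted (0.0327). Of the 7 members tested 1 rose, where 2.58% of all genes passed, and 4 did not overlap, as did 25.2% of all genes.

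Counted per nucleus, Gfap was found in few astrocytes in every group. With each nucleus thinned to 1000 UMIs, a Gfap UMI was present in 4.60%, 3.83% and 3.25% of astrocyte nuclei of young mice, in 4.60%, 8.63% and 8.86% in aged AAV-EGFP mice and in 9.72%, 7.203% and 11.2% in AAV-B3GNT3 mice. Aged AAV-EGFP replicate 1 was again level with young replicate 1, and every AAV-B3GNT3 mouse was above every young mouse. The means were 3.89%, 7.36% and 9.36% over 3462, 2051 and 2851 nuclei. The difference was 3.47 percentage points in ageing (p = 0.2), 1.999 for AAV-B3GNT3 (p = 0.4) and 5.47 for AAV-B3GNT3 against young (p = 0.1), by two-sided exact permutation tests of 3 against 3 mice, which cannot go below 0.1. Unthinned, the mean shares were 11.6%, 14.96% and 21.5%.

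The same thinned share in excitatory neurons, which should lack Gfap, ran from 0% to 0.251%, at median depths of 8465 to 12321 UMIs against 2588 to 3610 in astrocytes. S100b was found in 2.33% of young, 5.13% of aged AAV-EGFP and 4.33% of AAV-B3GNT3 astrocyte nuclei (SD 0.219, 0.469 and 0.912). For S100b the share in excitatory neurons was 0.534% to 1.15%. Serpina3n was found in 0.0708% to 0.355% of astrocyte nuclei of a mouse.

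Nuclei with a Gfap UMI also differed in other genes from the remaining astrocyte nuclei of the same mouse. There were 543 such nuclei at 1000 UMIs, 25 to 102 per mouse, and the shares are a description with no test. A UMI of Aqp4, the water channel of astrocyte endfeet, was found in a median of 22.5% of them against 11.6% of the others, higher in 9 of 9 mice. Id3 was found in 10.8% against 4.57%, also higher in 9 of 9 mice. Stat3 (20.4% against 11.0%) and Vim (2.44% against 0.894%) were higher in 8 of 9. Sox9 was higher in 6 of 9 mice (10.6% against 7.15%), and S100b was at 4.48% against 4.38%. In the other direction, Slc6a11, a GABA transporter, was found in 20% against 26.8% and Itih3 in 3.03% against 5.85%, each lower in 9 of 9 mice, and the glutamate transporter Slc1a3 in 85.4% against 89.7%, lower in 8 of 9. By mouse, Itih3 was found in 0% to 6.15% and Vim in 0% to 8.0% of the nuclei with Gfap. With 25 to 102 such nuclei per mouse, these 2 genes rest on few nuclei. Nuclei of different brain regions were pooled, and the part of region in these shares was not tested.

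**Figure D3:**
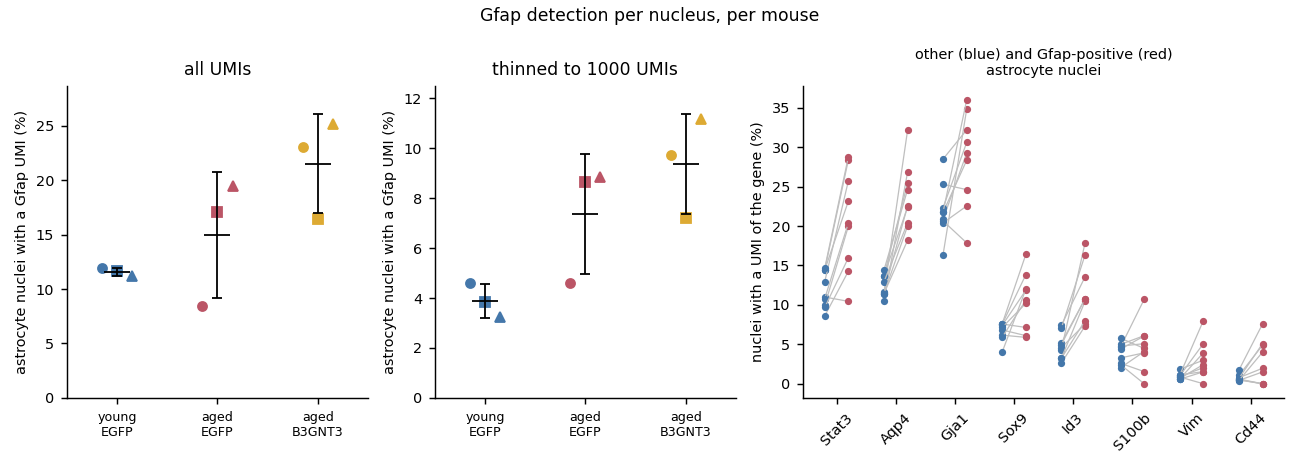
Share of astrocyte nuclei with a Gfap UMI in each mouse, with all UMIs and thinned to 1000, and share of nuclei with a UMI of other genes among nuclei with (red) and without (blue) a Gfap UMI, 1 point per mouse. All axes are percent of nuclei, and bars in the Gfap panels show the mean ± SD (n = 3 mice). Thinned shares run from 3.25% in a young mouse to 11.2% in an AAV-B3GNT3 mouse.

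Fixed lists of reactive genes were mostly below the filter in astrocyte nuclei. Of 9 pan-reactive genes beside the members, 4 were tested, and 1, Osmr, rose with ageing, where 11.7% of all genes passed. OSMR is the receptor subunit for oncostatin M, a cytokine that signals through STAT3. Osmr stood at 16.5, 6.47 and 8.71 CPM in young and at 28.3, 20.1 and 25.5 CPM in aged AAV-EGFP mice, which did not overlap (29.8% of all genes did not), with a log2 fold change of 1.18 (SE 0.28, adjusted p = 0.0172). In AAV-B3GNT3 mice it stood at 27.2, 27.3 and 29.0 CPM, 1.36 above young (adjusted p = 0.0169) and 0.18 from aged AAV-EGFP (interval -0.38 to 0.74). The ageing difference of Osmr with free RNA subtracted was 1.10 and did not pass (adjusted p = 0.0822). The ageing call was also lost without aged AAV-EGFP replicate 3 or young replicate 2 or 3 (up to 0.064), and the call against young without AAV-B3GNT3 replicate 1 or young replicate 2 or 3 (up to 0.0909). Of 13 genes known from inflammatory reactivity 4 were tested, and of 12 known from ischaemia 2, and 0 passed in ageing or under AAV-B3GNT3. The nearest was Ggta1 in ageing, at 0.75 (adjusted p = 0.0521).

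Of 15 genes of the STAT3 pathway list 13 were tested. With ageing 2 of them, Socs2 and Ptpn2, fell and 0 rose, where 11.7% of all genes passed, and the list's median log2 fold change was -0.12 against -0.00258 over all genes. Under AAV-B3GNT3 1, Socs2, rose and 0 fell, where 4.87% passed. SOCS2 is a feedback inhibitor of cytokine receptors and PTPN2 a phosphatase that acts on JAK and STAT proteins. Socs2 stood at 10.5, 11.2 and 16.2 CPM in young, at 2.27, 5.89 and 2.09 CPM in aged AAV-EGFP and at 7.67, 14.1 and 9.13 CPM in AAV-B3GNT3 mice, so aged AAV-EGFP mice were the lowest. It fell by 1.85 on the log2 scale with ageing (SE 0.41, adjusted p = 0.0102) and rose by 1.61 under AAV-B3GNT3 (SE 0.41, adjusted p = 0.0391). With free RNA subtracted Socs2 did not pass the filter on low counts and has no value. The AAV-B3GNT3 call rests on few UMIs and was lost without any aged AAV-EGFP mouse, AAV-B3GNT3 replicate 2 or young replicate 2 (adjusted p up to 0.203), and with only the compared groups fitted (0.0587). The ageing call was lost without aged AAV-EGFP replicate 3 (0.0678). Ptpn2 stood at 68.3, 72.9 and 70.1 CPM in young and 52.1, 31.4 and 44.3 CPM in aged AAV-EGFP mice, a fall of 0.73 (SE 0.19, adjusted p = 0.0224), lost without replicate 2 or 3 of either group (up to 0.0964). The Ptpn2 difference with free RNA subtracted was -0.75, about as large, and did not pass (adjusted p = 0.0715).

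Partners of the other members gave 0 calls or few. All 13 genes of the BMP and ID list and 6 of 7 filament partners were tested, and 0 of either passed in either comparison. Of 12 astrocyte transcription factors, 0 passed in ageing and 2 fell under AAV-B3GNT3, where 11.7% and 4.87% of all genes passed. They were Sox6, a SOX-family factor, by 0.78 (SE 0.17, adjusted p = 0.0209), and Zbtb20, a zinc-finger repressor, by 0.61 (SE 0.15, adjusted p = 0.0372). Sox6 stood at 585, 525.5 and 735 CPM in AAV-B3GNT3 mice against 1118, 1186 and 866 CPM in aged AAV-EGFP mice. Zbtb20 stood at 3079, 2822 and 3490.0 CPM against 4335, 5580.0 and 4391 CPM. Neither group pair overlapped, as was so for 24.2% of all genes, and with free RNA subtracted Sox6 differed by -0.69 and Zbtb20 by -0.53, neither past the threshold (adjusted p = 0.0751 and 0.112). Both were also lost without aged AAV-EGFP replicate 2 or AAV-B3GNT3 replicate 1 or 2 (up to 0.116 for Sox6), and that of Zbtb20 without young replicate 2 or 3 as well (up to 0.188) and with only the compared groups fitted (0.0655). Young mice stood at 790, 990 and 924 CPM for Sox6 and at 3870, 4512 and 4388 CPM for Zbtb20. Each lay above every AAV-B3GNT3 mouse, where 25.2% of all genes did not overlap. Neither difference from young passed, though that of Sox6 did with no filter on low counts (adjusted p = 0.019).

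Of 14 homeostatic astrocyte genes, Atp1b2 rose with ageing and fell under AAV-B3GNT3, and Slc4a4 fell under AAV-B3GNT3. These are 1 of 14 in ageing and 2 of 14 under AAV-B3GNT3, where 11.7% and 4.87% of all genes passed, and the list's medians were 0.20 and -0.29. Slc4a4, which encodes a sodium bicarbonate cotransporter, stood at 1287, 1381 and 1417 CPM against 2742, 2208 and 1876 CPM, a fall of 0.74 (SE 0.16, adjusted p = 0.0197). Young mice stood at 2210, 2277 and 2585 CPM, each above every AAV-B3GNT3 mouse, where 25.2% of all genes did not overlap. The Slc4a4 difference from young also passed, where 2.58% of all genes did. It was lost without AAV-B3GNT3 replicate 1 or 3 or young replicate 2 or 3 (adjusted p up to 0.108). Atp1b2, a subunit of the sodium pump, stood at 134, 119 and 115 CPM in young, 141, 210.4 and 211 CPM in aged AAV-EGFP and 131, 116 and 122 CPM in AAV-B3GNT3 mice. It rose by 0.61 with ageing (adjusted p = 0.023) and fell by 0.61 under AAV-B3GNT3 (adjusted p = 0.0405). With free RNA subtracted the differences were -0.65 for Slc4a4 under AAV-B3GNT3, 0.47 for Atp1b2 in ageing and -0.50 for Atp1b2 under AAV-B3GNT3. None of them passed the threshold (adjusted p = 0.0815, 0.118 and 0.137). The Slc4a4 call under AAV-B3GNT3 was lost without aged AAV-EGFP replicate 2 or AAV-B3GNT3 replicate 1 or 2 (up to 0.0939). The Atp1b2 call in ageing was lost without replicate 2 or 3 of either group (up to 0.0994). Under AAV-B3GNT3 the Atp1b2 call held only without AAV-EGFP replicate 1 of either age, and was lost without any other mouse (up to 0.18) and with only the compared groups fitted (0.0655). The 3 genes each that mark astrocytes inside or outside the forebrain gave 0 calls. The 10 astrocyte markers summed to 15930.0 to 18920.0 CPM in young, 17560.0 to 23150.0 CPM in aged AAV-EGFP and 14660.0 to 16990.0 CPM in AAV-B3GNT3 mice. Markers of oligodendrocyte precursor cells in astrocytes summed to 72.3 to 101 CPM in aged AAV-EGFP and 104 to 133 CPM in AAV-B3GNT3 mice. The part of these markers in the differences of Slc4a4, Atp1b2, Sox6 and Zbtb20 was not tested.

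The genes whose astrocyte level over the 9 mice was most like that of Gfap, among 7535 genes with a mean of at least 50 UMIs, were Gm48770 (Pearson r 0.971), Nxpe3 (0.958), Crebrf (0.958), Poln (0.958) and Slc39a14 (0.957). Slc39a14 is a metal transporter. The lowest r with any mouse left out was 0.949 for Slc39a14. These r share the libraries, the groups and the depth of the 9 mice and are given with no test.

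Oligodendrocytes, the myelinating cells, carried S100b and Serpina3n as the members that changed. S100b stood at 19.5, 20.9 and 17.3 CPM in young, at 33.9, 49.2 and 39.3 CPM in aged AAV-EGFP and at 20.2, 17.5 and 20.04 CPM in AAV-B3GNT3 mice. All 3 aged AAV-EGFP mice lay above all the others, and young and AAV-B3GNT3 mice overlapped. Of all genes in oligodendrocytes, 37.9% did not overlap in ageing and 29.3% under AAV-B3GNT3. S100b rose by 1.08 on the log2 scale with ageing (SE 0.17, interval 0.71 to 1.45, adjusted p = 0.00324) and fell by 1.08 under AAV-B3GNT3 (SE 0.17, interval -1.45 to -0.72, adjusted p = 0.00804). AAV-B3GNT3 and young mice differed by -0.0021 (interval -0.38 to 0.38). With free RNA subtracted both calls remained (adjusted p = 0.0169 and 0.0236), and the AAV-B3GNT3 call was lost only without AAV-B3GNT3 replicate 2 (adjusted p = 0.0588). The 8 oligodendrocyte markers summed to 11550.0 to 13890.0 CPM in young, 13220.0 to 15520.0 CPM in aged AAV-EGFP and 10600.0 to 11880.0 CPM in AAV-B3GNT3 mice, with no overlap between the aged groups. Markers of excitatory neurons in these nuclei summed to 258.5 to 281 CPM in young and 117 to 222 CPM in aged AAV-EGFP mice. Those of inhibitory neurons summed to 303 to 464 and 174 to 282 CPM, and those of fibroblasts to 12.7 to 17.6 and 4.79 to 9.37 CPM. The part of these markers in the S100b differences was not tested.

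Serpina3n stood at 0.881, 1.10 and 1.73 CPM in young, at 5.14, 3.36 and 2.68 CPM in aged AAV-EGFP and at 2.39, 3.47 and 2.67 CPM in AAV-B3GNT3 oligodendrocytes, on 5 to 20 UMIs per mouse. Every aged mouse of either vector lay above every young mouse, where 24.3% of all genes did not overlap between AAV-B3GNT3 and young mice. The rise with ageing was 1.61 (SE 0.41, interval 0.72 to 2.51, adjusted p = 0.0173), and the call was lost without young replicate 1 or 2 (0.0741 and 0.0645). Subtracting free RNA left a difference of 1.56, about as large, and did not pass (adjusted p = 0.0633). Under AAV-B3GNT3 the difference was -0.36 (interval -1.11 to 0.38), and against young mice it was 1.25 (adjusted p = 0.158). Among 8775 genes, those most like Serpina3n over the 9 mice were C4b (Pearson r 0.940), Neu1 (0.938), Gm2885 (0.929), Coro1b (0.927) and Zfp362 (0.917). C4b, which encodes complement component C4, rose by 3.08 with ageing in the same nuclei (adjusted p = 0.00324).

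The other 5 members tested in oligodendrocytes did not pass in any of the 3 comparisons. Stat3 stood at 66.7 to 69.1 CPM in young, 63.4 to 89.9 CPM in aged AAV-EGFP and 84.4 to 89.4 CPM in AAV-B3GNT3 mice, with differences of 0.26 in ageing (adjusted p = 0.197) and 0.37 for AAV-B3GNT3 against young (adjusted p = 0.205). Without aged AAV-EGFP replicate 2 the ageing difference of Stat3 passed (adjusted p = 0.0466). Sox9 differed by -0.92 in ageing (adjusted p = 0.0953) and passed with no filter on low counts (0.0456) and without aged AAV-EGFP replicate 1 (0.0265) or young replicate 3 (0.0486). Gfap, Id3, Cd44 and Sox9 stayed under 8 CPM there, and Vim, at 2 to 10 UMIs per mouse, did not pass the filter. In ageing 2 of 7 members rose and 0 fell, where 20.6% of all genes passed. Under AAV-B3GNT3 1 of 7 fell, where 7.36% passed. For AAV-B3GNT3 against young 0 of 7 passed by edgeR or DESeq2, with 2 at an unadjusted p under 0.05, where 1.55% passed.

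Whether astrocytes and oligodendrocytes responded differently was tested as a class-by-group interaction over the 9 mice. For S100b the ageing effects did not differ past the threshold, at -0.13 (interval -0.50 to 0.23, adjusted p = 0.744). Its AAV-B3GNT3 effect was 0.68 less negative in astrocytes (SE 0.17, interval 0.33 to 1.04), which missed the threshold at an adjusted p of 0.0502. It passed with no filter on low counts, with no doublets removed, with no upper limit on genes and without aged AAV-EGFP replicate 1 (adjusted p from 0.0317 to 0.0474). These were 3 of 9 other settings and 1 of 9 fits with 1 mouse left out. In the remaining ones it did not pass, with adjusted p up to 0.379 and 0.183. Sox9 was the 1 member of 8 whose ageing effect differed, by 1.12 (SE 0.30, interval 0.48 to 1.76, adjusted p = 0.0442), with 0.21 in astrocytes and -0.92 in oligodendrocytes, neither past the threshold by itself. Sox9 in oligodendrocytes was at 2.40 to 7.92 CPM, near its level in inhibitory neurons (0.986 to 4.92 CPM). The difference was 0.94 with free RNA subtracted (adjusted p = 0.359) and 1.15 by DESeq2 (0.0894), neither past the threshold. The call was also lost without aged AAV-EGFP replicate 2 or 3, AAV-B3GNT3 replicate 1 or young replicate 1 or 2 (up to 0.184). In the ageing interaction 4.74% of all genes passed. In the AAV-B3GNT3 interaction 0 of 8 members passed by edgeR or DESeq2, with 3 at an unadjusted p under 0.05, where 1.73% of all genes passed. Beside S100b these were Sox9, at -0.92 (adjusted p = 0.17, and 0.0463 with no filter on low counts and 0.049 without aged AAV-EGFP replicate 1), and Cd44, at 1.86 (adjusted p = 0.2, and 0.00177 with no filter). In every other setting and fit with 1 mouse left out, Sox9 (adjusted p up to 0.653) and Cd44 (up to 0.605) did not pass.

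In BECs, the cells that the vectors target, Id3 and Vim were the members that moved. The class held 741 nuclei, 49 to 118 per mouse. Id3 stood at 146, 132 and 136 CPM in young, at 419, 416 and 358 CPM in aged AAV-EGFP and at 90.0, 101 and 207 CPM in AAV-B3GNT3 mice, on 14 to 52 UMIs. The 3 aged AAV-EGFP mice lay above all others. Id3 rose by 1.51 with ageing (SE 0.30, interval 0.88 to 2.14, adjusted p = 0.0148) and fell by 1.60 under AAV-B3GNT3 (SE 0.31, interval -2.25 to -0.95, adjusted p = 0.0181). AAV-B3GNT3 against young gave -0.08 (interval -0.75 to 0.59).

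Vim in BECs stood at 86.8, 99.1 and 165 CPM in young, 190.4, 416 and 269 CPM in aged AAV-EGFP and 103, 116 and 166 CPM in AAV-B3GNT3 mice, and the aged AAV-EGFP mice did not overlap with the others. Of all genes in BECs, 21.5% did not overlap in ageing and 18% under AAV-B3GNT3. Vim rose by 1.33 with ageing (SE 0.34, interval 0.60 to 2.06, adjusted p = 0.0341), and under AAV-B3GNT3 the difference was -1.18 (interval -1.92 to -0.44, adjusted p = 0.0797). Stat3 did not pass in any comparison, with -0.11 in ageing and -0.58 under AAV-B3GNT3. Thinned to 1000 UMIs, Id3 was found in 8.71% of BEC nuclei in young, 22.9% in aged AAV-EGFP and 8.99% in AAV-B3GNT3 mice (SD 0.590, 5.89 and 7.02).

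The BEC calls were less firm than the S100b calls. The 8 BEC markers themselves summed to 13520.0 to 16840.0 CPM in young, 21260.0 to 27090.0 in aged AAV-EGFP and 13940.0 to 14660.0 in AAV-B3GNT3 mice, and free RNA was estimated at 22.4% to 29.3%, 10.3% to 12.3% and 17.7% to 26.3% of BEC UMIs. The 7 microglia markers, all with a UMI in BECs, summed to 118 to 160.5 CPM in young, 241 to 294 CPM in aged AAV-EGFP and 111 to 289 CPM in AAV-B3GNT3 mice. The part of these shifts in the Id3 and Vim differences was not tested. With free RNA subtracted, the rises of Id3 and Vim with ageing were 1.28 and 1.07 (adjusted p = 0.148 and 0.238) and the fall of Id3 under AAV-B3GNT3 was 1.43 (adjusted p = 0.103). The Id3 calls were also lost without young replicate 1 or 2 in ageing (adjusted p up to 0.0663) and without AAV-B3GNT3 replicate 1 or 2 under AAV-B3GNT3 (up to 0.130), and the Vim call without aged AAV-EGFP replicate 2 or 3, AAV-B3GNT3 replicate 1 or young replicate 1 or 2 (up to 0.157). The Id3 call under AAV-B3GNT3 was also lost with only the compared groups fitted (0.0555), and the Vim call then (0.0744), with no upper limit on genes (0.11) and at the finer clustering (0.0681). Without aged AAV-EGFP replicate 1, Vim fell under AAV-B3GNT3 (adjusted p = 0.0091). In ageing 2 of 3 members tested rose, where 5.86% of all BEC genes passed. Under AAV-B3GNT3 1 of 3 fell, where 2.87% passed. For AAV-B3GNT3 against young 0 of 3 passed (1 at an unadjusted p under 0.05), where 0.0% of 4389 genes passed by edgeR, with 278 at an unadjusted p under 0.05 and 0 by DESeq2.

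**Figure D4:**
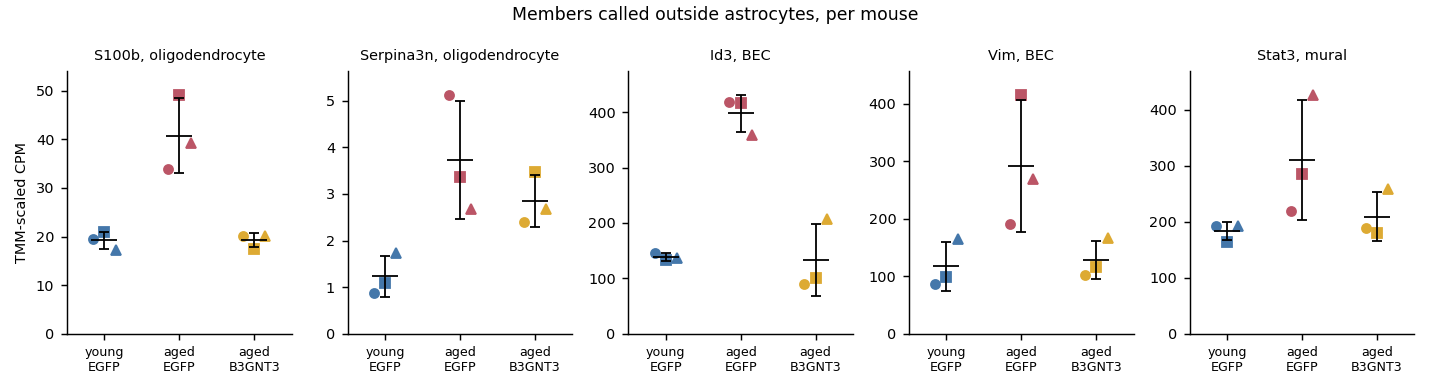
Levels of S100b and Serpina3n in oligodendrocytes, of Id3 and Vim in BECs and of Stat3 in mural cells, in TMM-scaled CPM per mouse from 0. Circles, squares and triangles are replicates 1, 2 and 3, and bars show the mean ± SD (n = 3 mice). In the S100b, Id3 and Vim panels the 3 aged AAV-EGFP mice lie above the 6 other mice.

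In mural cells, the pericytes and smooth muscle cells of vessels, Stat3 was the only member with enough UMIs to be tested. It stood at 193, 164 and 193 CPM in young, 218, 284.5 and 427 CPM in aged AAV-EGFP and 188, 179.5 and 259 CPM in AAV-B3GNT3 mice. The rise with ageing was 0.84 (SE 0.25, interval 0.32 to 1.36, adjusted p = 0.0318), where 11.1% of all mural genes passed. It was 0.48 without aged AAV-EGFP replicate 3 (adjusted p = 0.43), and it did not pass without any young mouse, by DESeq2 (0.108), with no filter on low counts (0.15) or with free RNA subtracted, at 0.63 (0.233). BEC markers summed to 279 to 357.5 CPM in young and 571 to 1467 CPM in aged AAV-EGFP mural nuclei, and the 7 fibroblast markers to 153.5 to 187 CPM and 202 to 228 CPM, and their part in this rise was not tested. Stat3 differed by -0.68 under AAV-B3GNT3 (adjusted p = 0.138, and 0.0404 without aged AAV-EGFP replicate 1) and by 0.16 against young (adjusted p = 0.875), where 2.7% and 0.212% of all genes passed.

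In fibroblasts 6 members were tested and 0 passed in the 3 comparisons, by edgeR or DESeq2, with 2, 2 and 1 at an unadjusted p under 0.05, where 3.81%, 0.616% and 0.117% of all genes passed. Cd44 was at 17.9, 45.3 and 35.7 CPM in young, 16.3, 2.89 and 6.82 CPM in aged AAV-EGFP and 5.45, 22.5 and 7.10 CPM in AAV-B3GNT3 mice. The aged AAV-EGFP mice lay below the young mice on 1 to 4 UMIs each, a separation shown by 21.6% of all genes, with a log2 difference of -2.06 (interval -3.47 to -0.66, adjusted p = 0.105). The cluster of 1876 nuclei also holds cells with choroid plexus markers. The 10 astrocyte markers summed to 2842 to 4991 CPM in this class and its own 7 markers to 2064 to 3672 CPM. The part of these other markers in the levels and differences of this class was not tested. At a finer clustering, which left 728 nuclei with markers of both unnamed beside 1179 fibroblast nuclei, Stat3 rose with ageing (0.82, adjusted p = 0.0489) and Id3 fell under AAV-B3GNT3 (-1.45, adjusted p = 0.0212). Stat3 also passed in ageing without aged AAV-EGFP replicate 1 (adjusted p = 0.00618), and Cd44 with no filter on low counts (0.00184).

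**Figure D5:**
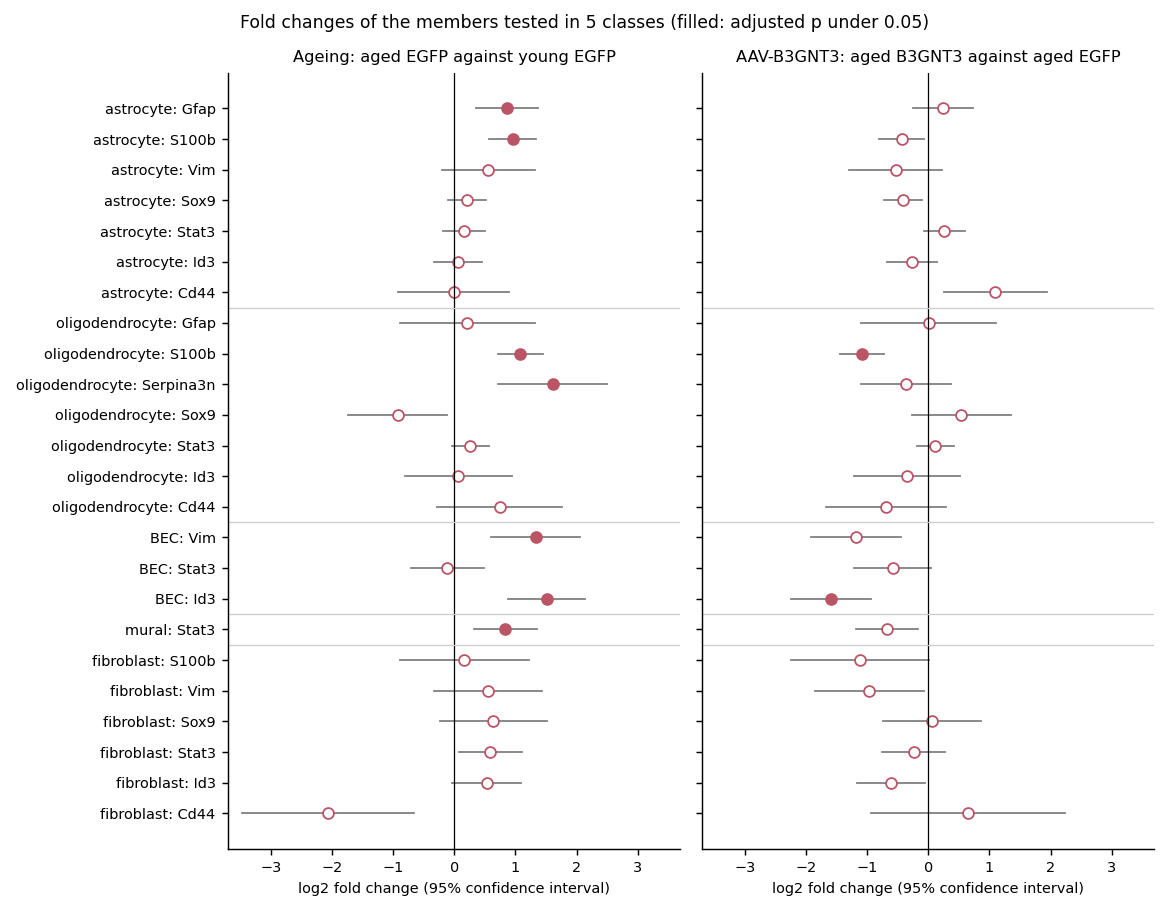
Log2 fold changes of every member tested, by cell class, for ageing (left) and AAV-B3GNT3 (right), both against aged or young AAV-EGFP mice as titled. Points are edgeR estimates, lines are 95% confidence intervals and filled points have an adjusted p under 0.05. In ageing 7 points are filled, led by Serpina3n in oligodendrocytes (1.61), and under AAV-B3GNT3 2 are, S100b in oligodendrocytes (-1.08) and Id3 in BECs (-1.60).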

How the data were processed

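Per the labels, nuclei from pooled cortex and hippocampus of each mouse were stained, sorted as singlets and sequenced with 10x Genomics 3′ chemistry. The authors' deposited matrices hold raw UMI counts per gene and barcode on GRCm38 (mm10). The submitters' processing notes name Cell Ranger 4.0.0, whereas the matrix headers name 7.2.0. The study's methods also name SoupX and DoubletFinder, which were not rerun here. Unmapped sample columns numbered 0.

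A nucleus was retained if it had between 200 and 5000 detected genes and no more than 10% of its UMIs from mitochondrial genes. Doublets, scored per library by the share of simulated doublets among neighbours at a rate of 0.8% per 1000 barcodes, were removed (5532). A total of 2000 variable genes, without the members and reactive lists, 15 principal components and 20 neighbours gave Leiden clusters (resolution 0.3; Python 3.11.15, scanpy 1.11.5, leidenalg 0.10.2), named from marker lists. UMI counts were summed per mouse and class and tested with edgeR 4.0.16 in R 4.3.3 (minimum count 10, TMM, two-sided quasi-likelihood test, all 9 mice in 1 fit per class, Benjamini-Hochberg over all genes of the class). The interaction used both classes' sums with the mouse as a block. A call is an adjusted p under 0.05, SEs were derived from the fold change and its test statistic, and intervals are 95%. The labels name no batch and do not say that equal replicate numbers mark related mice. p-values weigh a difference against the spread between these mice.

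Free RNA was estimated per mouse and class as the median, over 7 neuronal genes, of their share of the class relative to that of the whole library, and was subtracted in that proportion. Shares of nuclei were thinned to 1000 UMIs per nucleus. Alternatives were DESeq2 1.42.0, RLE size factors, no filter, no doublet removal, no upper gene limit, Leiden 1.0, only the groups compared, a replicate block, free RNA subtracted, astrocytes with an Agt UMI left out and each mouse left out. The scripts were tested on simulated data.

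The members and lists were chosen with earlier results of these data known. Named were all 8 members, up to 3 genes per list with the smallest adjusted p among those called in ageing or under AAV-B3GNT3 in astrocytes, and the 5 genes most like Gfap in astrocytes and Serpina3n in oligodendrocytes by Pearson r of log2 CPM (prior count 2). Ggta1, C4b's fold change and the genes compared between nuclei with and without Gfap were chosen after their values were seen.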

Additional observations from a re-analysis of the deposited data

Results flagged for a closer look

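The ageing effect on Sox9 differed between astrocytes (0.21) and oligodendrocytes (-0.92) by a log2 difference of 1.12 (adjusted p = 0.0442, edgeR interaction test over 14403 genes). Oligodendrocytes held 10 to 45 Sox9 UMIs per mouse, and estimated free RNA there was 25.2% to 28.1% in young and 9.69% to 16.1% in aged AAV-EGFP mice. The difference was 0.94 with free RNA subtracted (adjusted p = 0.359) and 1.15 by DESeq2 (0.0894), neither of them past the threshold, and it did not pass when any 1 of 5 mice was left out (0.0664 to 0.184).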

How the results depend on the processing

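Vim in ageing BECs was called in 5 of 9 other settings and in 4 of 9 fits with 1 mouse left out, and Gfap in ageing astrocytes in 4 of 9 of the latter. S100b in ageing, in astrocytes and in oligodendrocytes, passed under every alternative run. The Gfap share of astrocyte nuclei differed by 6.55 percentage points for AAV-B3GNT3 without thinning, and for AAV-B3GNT3 against young by 9.919 without thinning and by 3.104 at 500 UMIs. Leaving out 1 mouse gave 2.72 to 4.85 in ageing, 0.616 to 3.08 for AAV-B3GNT3 and 4.57 to 6.55 for AAV-B3GNT3 against young.

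The numbers of members called (ageing, AAV-B3GNT3 and AAV-B3GNT3 against young were 2, 0 and 1 in astrocytes, 2, 1 and 0 in oligodendrocytes, 2, 1 and 0 in BECs, 1, 0 and 0 in mural cells and 0 in fibroblasts) moved as follows. With free RNA subtracted they were 1 in ageing astrocytes, 1 in ageing oligodendrocytes, 0 in both BEC comparisons, 0 in ageing mural cells and 0 in the ageing interaction. With no filter on low counts they were 1 and 2 in astrocytes for AAV-B3GNT3 and for AAV-B3GNT3 against young, 0 in ageing mural cells, 1 in fibroblasts for ageing and 1 against young, and 3 in the AAV-B3GNT3 interaction. With only the compared groups fitted they were 2 in astrocytes against young, and 1 and 0 in BECs for ageing and AAV-B3GNT3. DESeq2 gave 0 in ageing mural cells and 0 in the ageing interaction. At Leiden 1.0 they were 1 in ageing BECs and 1 in fibroblasts in each of ageing and AAV-B3GNT3. With no upper gene limit they were 1 in ageing BECs and 1 in the AAV-B3GNT3 interaction, where removing no doublets also gave 1. Leaving out 1 mouse gave, for the 3 comparisons in turn, 1 to 2, 0 to 1 and 0 to 1 in astrocytes, 1 to 3, 0 to 1 and 0 to 0 in oligodendrocytes, 0 to 2, 0 to 2 and 0 to 0 in BECs, 0 to 1, 0 to 1 and 0 to 0 in mural cells, 0 to 1, 0 to 0 and 0 to 0 in fibroblasts, and 0 to 1 and 0 to 2 in the interactions. The causes were not tested.

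Only differences that had not passed changed sign. Cd44 in ageing astrocytes was 0.0037 with RLE, 0.0019 with only the compared groups, 0.0089 with no upper gene limit, 0.0234 at Leiden 1.0 and 0.0217 without Agt-positive nuclei. Id3 in ageing astrocytes was -0.0798 with free RNA subtracted. Vim in astrocytes against young was -0.0129 with no doublets removed and -0.012 at Leiden 1.0. S100b in oligodendrocytes against young was 0.0109 with no filter, 0.0038 with the replicate block, 0.0019 with no upper gene limit and 0.0114 at Leiden 1.0, and Id3 in BECs against young was 0.048 with no upper gene limit. Leaving out 1 mouse gave -0.615 to 0.397 for Cd44 and -0.0157 to 0.214 for Id3 in ageing astrocytes, -0.044 to 0.446 for Gfap under AAV-B3GNT3 and -0.108 to 0.224 for Vim against young. Against young it gave -0.0688 to 0.0657 for S100b in oligodendrocytes, -0.543 to 0.1004 for Id3 and -0.0862 to 0.439 for Vim in BECs and -0.009 to 0.239 for Stat3 in mural cells, and in ageing BECs -0.374 to 0.0129 for Stat3.

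By the labels the mice share only a replicate number. Correlations of same-numbered deviations in astrocytes were 0.045, 0.027 and 0.089 in ageing and -0.156, 0.022 and 0.022 for AAV-B3GNT3. Over both comparisons they ran from -0.182 to 0.165 in oligodendrocytes and from -0.089 to 0.202 in BECs. The replicate block left the numbers of members called at 2, 0 and 1 in astrocytes, with Gfap in ageing at 0.83 (adjusted p = 0.0453). With it the calls of Zbtb20 and Atp1b2 under AAV-B3GNT3 were lost (adjusted p = 0.059 and 0.06), and the AAV-B3GNT3 count of all genes fell from 126 to 81 in BECs and rose from 11 to 87 in fibroblasts against young and from 10 to 18 in mural cells against young.

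Counts of all genes called moved more, as follows for ageing, AAV-B3GNT3 and AAV-B3GNT3 against young where they moved by over 1.5 times. With free RNA subtracted, 1483, 617 and 327 became 124, 58 and 197 in astrocytes, 2733 and 976 became 1162 and 230 in oligodendrocytes, 257 and 126 became 0 and 2 in BECs, 522, 127 and 10 became 55, 7 and 3 in mural cells, 359, 58 and 11 became 2, 0 and 7 in fibroblasts, and 682 and 249 became 16 and 1 in the interactions. With no filter they were 1354 and 1077 in astrocytes for the last 2 comparisons, 2028 and 985 in oligodendrocytes, 421, 230 and 17 in BECs, 227 and 42 in mural cells, 758, 591 and 623 in fibroblasts, and 1239 and 664 in the interactions. With only the compared groups they were 395 and 746 in astrocytes, 534 and 522 in oligodendrocytes, 131, 21 and 22 in BECs, 72 and 24 in mural cells, 191, 0 and 225 in fibroblasts and 121 in the AAV-B3GNT3 interaction. DESeq2 gave 449 in oligodendrocytes against young, 323 and 64 in mural cells, and 119 and 98 in fibroblasts. With no upper gene limit BECs gave 47 and 36, and at Leiden 1.0 they gave 121 and 81 and fibroblasts 572 and 208. With no doublets removed fibroblasts gave 0 and 1 for AAV-B3GNT3 and against young. Leaving out 1 mouse gave 601 to 2293, 17 to 820 and 64 to 725 in astrocytes and 1331 to 3960, 7 to 1709 and 20 to 545 in oligodendrocytes, where the lowest AAV-B3GNT3 counts, 17 and 7, were those without AAV-B3GNT3 replicate 2. Serpina3n, on 1 to 20 UMIs per mouse in astrocytes and oligodendrocytes, is limited by depth.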
